A study of Mus musculus with 192 samples.

Results

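Hindbrain and midbrain RNA of hemizygous (HEM) mice of the L44 line was compared with that of nontransgenic (NON) mice at the first time point of the study (T1), when the mice were 99 to 101 days old and had not yet reached the diabetic stage. L44 mice have an FVB/n background and carry tripro-human amylin, a form of human amylin that does not aggregate, under the rat insulin II promoter, which drives it in pancreatic beta cells. HEM mice carry 1 copy of the transgene locus, homozygous (HOM) mice carry 2, and NON mice carry none. The study reports several copies of the transgene itself in HEM mice and more in HOM mice. All were males from matings of HEM with HEM mice, with NON littermates used as controls where they were available. The samples were chosen as all T1 hindbrain and midbrain samples labelled HEM or NON, whatever their collection time. There were 20 such samples of 192 in the series, with 5 HEM and 5 NON samples in each region. Most samples were pools of RNA from 2 mice. In each region 1 HEM and 1 NON sample came from 1 mouse each, so each group of 5 pools held 9 mice. Pools of the same name in both regions had the same ages and were taken to hold the same mice.

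The labels give a collection time for only some HEM pools. HEM pools 8 and 9/10 were collected in the afternoon (PM), and HEM pools 1/2, 3/4 and 5/6, all from mice of 99 days, have no time in the labels. NON pools 1/3, 4/5 and 6 were labelled PM and NON pools 2/7 and 8/9 were labelled AM (morning). The mean of all 5 HEM pools therefore mixes pools with a known time and pools without one, and the 2 kinds were also tested apart.

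Amylin is released with insulin from the pancreatic beta cell and acts on the brainstem and hypothalamus to end meals. Its receptor is the calcitonin receptor (Calcr) joined to a receptor activity modifying protein (Ramp1, Ramp2 or Ramp3), and c-Fos, an immediate early gene, is a common marker of the neurons it activates. Insulin signals through its receptor (Ir), the substrates Irs1 and Irs2, and phosphoinositide 3-kinase (PI3K) with Akt. Leptin signals through its receptor (Lepr) with Jak2 and Stat3, and Socs3 and Ptp1b restrain both signals. In the hypothalamus these hormones meet the neurons that make Pomc and Cart, which lower food intake, and Npy and Agrp, which raise it.

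mRNA was counted with the NanoString nCounter, which counts colour-coded probes hybridised to RNA without amplification. The 43 target counts of each sample were divided by the geometric mean of its 3 reference genes and are given as normalised counts, on the scale of the mean reference level of the 10 pools of a region. Total target counts ranged from 85510 (HEM 8) to 219509 (NON 8/9) in the hindbrain and from 125321 (HEM 5/6) to 275319 (NON 8/9) in the midbrain. In the midbrain the reference genes themselves were lower in every HEM pool (geometric means of 3154 to 5164 counts) than in any NON pool (5345 to 6384 counts). Background was the mean of the 8 negative control probes plus 2 SD, which lay between 3.01 and 30.4 counts. All 10 pools were above it for 37 of 43 genes in the hindbrain and 40 of 43 in the midbrain. The exceptions were Amylin, Ins1 and Ins2 in both regions, and Agrp, Hcrt and Socs3 in the hindbrain. The quasi-likelihood test of edgeR gave the log2 fold-changes, their standard errors (SE) and the p-values, which were adjusted by Benjamini-Hochberg across all 43 genes, and a gene was called at an adjusted p below 0.05. In whole tissue, fewer cells of a type and less RNA per cell cannot be told apart.

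The dissections were checked first through genes of known cell types. Mch, the melanin-concentrating hormone precursor made by lateral hypothalamic neurons, was between 12133 and 32931 normalised counts in the 10 midbrain pools and between 80.3 and 385 in the 10 hindbrain pools, each on its own region's scale. The Mch counts therefore place hypothalamus in the midbrain pieces, as the study describes for this piece. Hcrt was also higher in the midbrain (430 to 1252) than in the hindbrain (14.2 to 112). The ranges overlapped for Hdc (51.7 to 288 in the midbrain, 145 to 311 in the hindbrain) and Agrp (29.1 to 145 and 19.7 to 205). They also overlapped for Pomc (48.5 to 386 and 26.4 to 310). How much hypothalamus the hindbrain pieces held was not tested. The transgene has no probe that the files name as its own, since the Amylin probe is assigned to mouse Iapp, so the genotype labels were not checked from these counts.

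Several pools stood apart from their group. In the hindbrain, transcripts of islet genes (Amylin, Ins1 and Ins2 summed) reached 217 normalised counts in HEM 1/2, 375 in HEM 5/6, 467 in NON 2/7 and 129 in NON 6. The other 6 hindbrain pools were between 15.5 and 53.9, and in each of them between 1 and 3 of the 3 islet genes were at or under background. Ins1 was the most abundant of the 3 in the 4 high pools. The same pools had the highest Agrp in the hindbrain, at 136 in HEM 1/2, 164 in HEM 5/6, 205 in NON 2/7 and 56.6 in NON 6, against at most 32.1 elsewhere. High and low pools occurred in both genotypes.

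In the midbrain 4 of the 5 HEM pools lay outside the NON range of hypothalamic transcripts. The summed count of Agrp, Hcrt, Hdc and Pomc, which are made by hypothalamic neurons, was 909 in HEM 1/2 and 559 in HEM 5/6, against 1934 in HEM 3/4. The HEM pools labelled PM had 1019 (HEM 8) and 1452 (HEM 9/10), and the NON pools ran from 1276 to 1587. With Mch added, the sums were 18198 in HEM 1/2, 12692 in HEM 5/6, 34866 in HEM 3/4, 18888 in HEM 8 and 24519 in HEM 9/10, and 22344 to 25498 in NON. Mch was the most abundant of these 5 markers in all 10 midbrain pools and none was at background. HEM 1/2, 5/6 and 8 were under every NON pool in both sums and HEM 3/4 was above every NON pool, while HEM 9/10 was within the NON range. The part of these differences in the midbrain results was not tested.

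**Figure D1:**
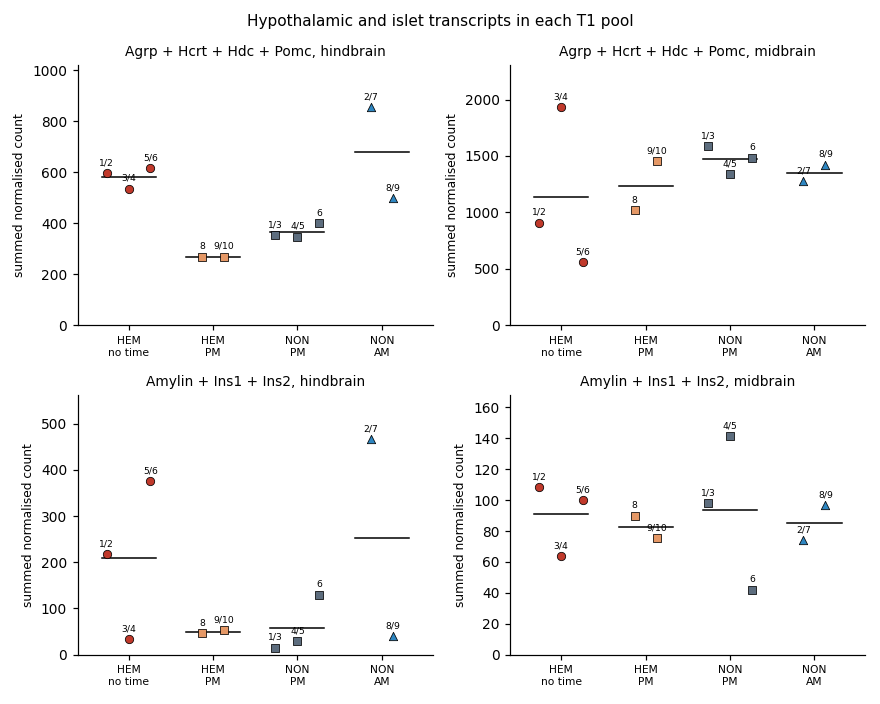
Summed normalised counts (vertical axes, starting at 0) of 4 hypothalamic transcripts (top) and 3 islet transcripts (bottom) in each T1 HEM and NON pool, with 1 point for a pool, its pool name above it, and a line at the mean. The hindbrain islet sum is high in HEM 1/2, HEM 5/6 and NON 2/7 and, to a lesser degree, in NON 6 (129). The midbrain hypothalamic sum spreads from 559 in HEM 5/6 to 1934 in HEM 3/4.

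The first comparison asked whether any of the 43 transcripts differed between HEM and NON before diabetes, over all collection times. No gene was called in the hindbrain (0% of 43 genes) or in the midbrain (0%). In the hindbrain the lowest adjusted p was 0.94, and 1 gene had an unadjusted p under 0.05 by edgeR and none by DESeq2. In the midbrain the lowest adjusted p was 0.353, with 1 gene under an unadjusted 0.05 by edgeR and 5 by DESeq2, which also called none. The median log2 fold-change over the 43 genes was 0.03 in the hindbrain, where 26 genes were above 0, and -0.02 in the midbrain, where 19 were. Scaled to the positive control probes, which are added at a fixed amount, the medians were -0.25 with 3 genes above 0 in the hindbrain and -0.35 with 1 above 0 in the midbrain, and no gene was called. The effect of the genotype did not pass the test of a difference between the regions for any gene (lowest adjusted p = 0.989 and 0 genes under an unadjusted 0.05 by edgeR, 0 genes called by DESeq2).

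**Figure D2:**
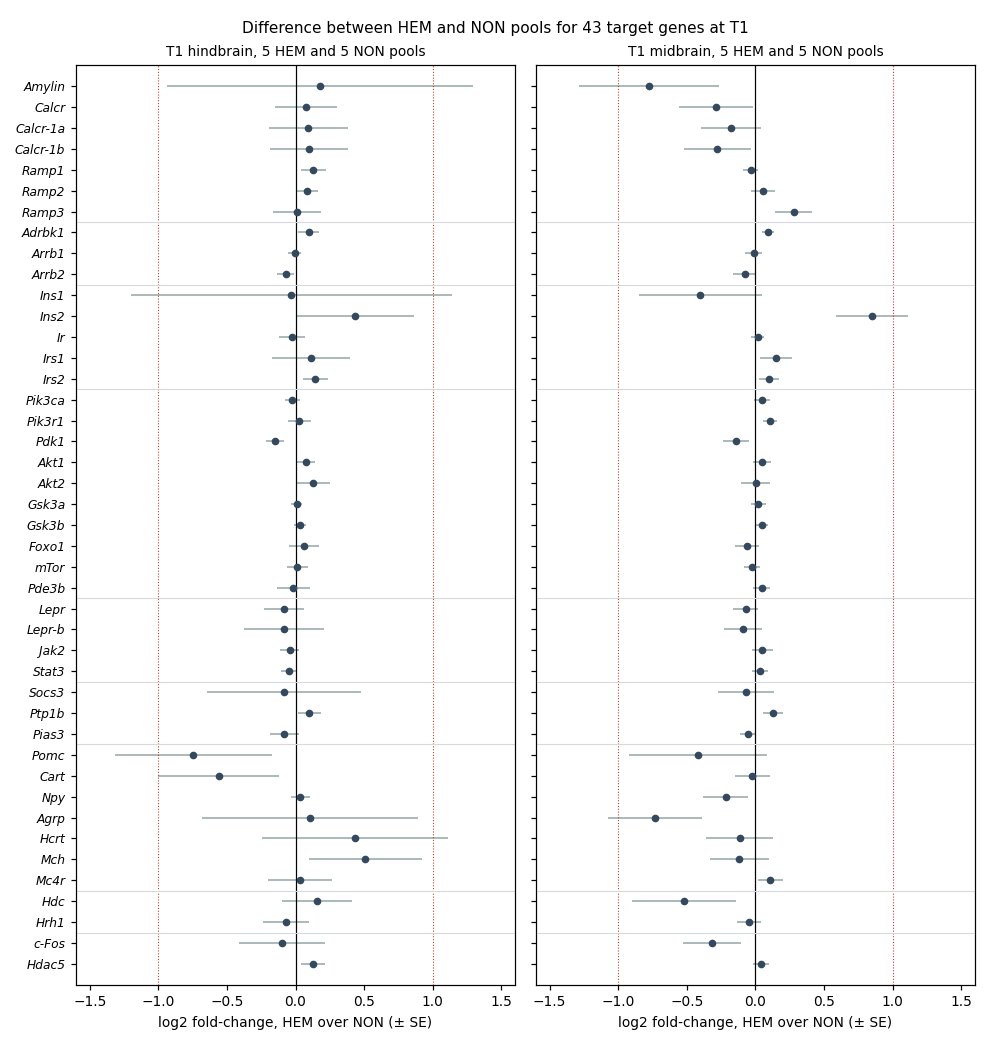
Log2 fold-change of HEM over NON (horizontal axis, points with bars of 1 SE) for 43 genes in the T1 hindbrain (left) and midbrain (right), 5 pools a group, with genes in the order of their roles and dotted lines at -1 and 1. Hindbrain values lie between -0.74 (Pomc) and 0.51 (Mch), and midbrain values between -0.78 (Amylin) and 0.85 (Ins2). Leaving out 1 pool moved hindbrain Mch to as low as 0.07 and midbrain Amylin to as high as -0.12. Wide bars mark the genes that differ most between pools of a group.

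None of the genes of amylin and its receptors was called in either region. In the hindbrain 7 of 7 probes of this list were above 0, beside 26 of all 43, with a median log2 fold-change of 0.09. Calcr, Calcr-1a and Calcr-1b are probes of the same gene. Leaving out 1 pool turned Amylin below 0 in 5 of 10 fits, Calcr and Ramp3 in 3 each and Calcr-1b in 1. Calcr, the core of the amylin receptor, was 302 ± 58.8 normalised counts in HEM and 287 ± 75.2 in NON hindbrain (SD, n = 5 pools each). In the midbrain 5 of 7 were below 0, with a median of -0.18, and Calcr was 650 ± 266 in HEM and 796 ± 36.3 in NON. HEM 5/6 was the lowest with 254 Calcr counts, and the other HEM pools still spread from 578 to 903, a range wider than the 747 to 834 of the NON pools. Calcr-1b, the probe for another isoform of the receptor, gave 0.10 ± 0.28 (log2 fold-change ± SE) in the hindbrain and -0.28 ± 0.25 in the midbrain. Ramp1 (0.13 ± 0.09) and Ramp2 (0.09 ± 0.07) had the lowest unadjusted p of this list in the hindbrain, and Ramp3 (0.28 ± 0.13) and Amylin (-0.78 ± 0.51) in the midbrain. Midbrain Amylin was at or under background in 3 HEM and 2 NON pools, and hindbrain Amylin (0.18 ± 1.12) in 3 of each.

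Genes that desensitise receptors were close to level. Adrbk1, the kinase now called Grk2, gave 0.09 ± 0.07 in the hindbrain and 0.09 ± 0.04 in the midbrain. Arrb2, which encodes beta-arrestin 2, had -0.07 ± 0.06 and -0.08 ± 0.08. The median of the 3 genes was -0.01 in both regions.

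Midbrain Ins2 was the only gene whose HEM and NON pools did not overlap in normalised counts. That was 1 of 43 genes (2.33%) in the midbrain against none (0%) in the hindbrain. Ins2 is 1 of the 2 insulin genes of the mouse. HEM pools had 45.4 (1/2), 30.5 (3/4), 69.5 (5/6), 43.6 (8) and 34.0 (9/10) normalised counts, and NON pools had 23.2 (1/3), 30.5 (2/7), 22.6 (4/5), 18.1 (6) and 27.9 (8/9). The lowest HEM pool and the highest NON pool were less than 1 count apart, so the groups touched. The log2 fold-change was 0.85 ± 0.26 (adjusted p = 0.353, edgeR), with an adjusted p of 0.341 by an exact two-sided permutation test, whose unadjusted p follows from the separation itself. These levels are near background, and 2 NON pools and no HEM pool were at or under it. The background itself, in raw counts, was 9.73 to 22.9 in HEM and 20.3 to 30.4 in NON midbrain pools. No background was subtracted for these values. The reference genes that divide the counts were lower in every HEM pool than in any NON pool. Raw Ins2 counts overlapped between HEM and NON, and the part of the scaling in the separation was not tested. Ins1, the other insulin gene, gave -0.40 ± 0.45 in the midbrain and -0.03 ± 1.17 in the hindbrain, and hindbrain Ins2 had 0.43 ± 0.43. Irs2, an insulin receptor substrate, had 0.14 ± 0.09 in the hindbrain and 0.10 ± 0.07 in the midbrain.

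Of the 10 genes listed under PI3K and Akt, 7 were above 0 in each region and the medians were 0.02 (hindbrain) and 0.03 (midbrain). The gene with the lowest unadjusted p of the whole hindbrain was in this list. Pdk1 was 2898, 2443, 2418, 2339 and 2506 normalised counts in HEM pools 1/2, 3/4, 5/6, 8 and 9/10, and 2736, 2714, 2787, 2937 and 2820 in NON pools 1/3, 2/7, 4/5, 6 and 8/9. All HEM pools but 1/2 lay under all NON pools. The log2 fold-change was -0.15 ± 0.07 (adjusted p = 0.94 by edgeR), and without HEM 1/2 it was -0.21 ± 0.04 with an adjusted p of 0.0279, so that single pool decided the call. The probe's identity needs a remark. The study lists it as the phosphoinositide-dependent kinase, which acts between PI3K and Akt and is named Pdpk1 in RefSeq, with Pdk1 as its synonym. The transcript that the file gives for the probe belongs in RefSeq to the gene Pdk1 itself, which encodes pyruvate dehydrogenase kinase 1, an enzyme that limits the entry of pyruvate into the citric acid cycle. Transcripts of all 43 probes matched a RefSeq gene. After Pdk1, the kinase Akt1 (0.08 ± 0.07) had the lowest unadjusted p of the list in the hindbrain, and in the midbrain it was Pik3r1 (0.11 ± 0.05), the regulatory subunit of PI3K.

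The 4 leptin receptor and Jak/Stat genes were below 0 in the hindbrain, between -0.09 and -0.04, with Stat3 at -0.05 ± 0.06 and Jak2 at -0.04 ± 0.07. In the midbrain 2 of 4 were below 0, and Lepr (-0.07 ± 0.09) and Lepr-b (-0.09 ± 0.14), a probe for the long signalling form of the receptor, had the lowest unadjusted p. Among the inhibitors, Ptp1b, a phosphatase that acts on the insulin and leptin receptor pathways, had 0.10 ± 0.08 in the hindbrain and 0.13 ± 0.07 in the midbrain. Pias3, an inhibitor of Stat3, had -0.08 ± 0.11 and -0.05 ± 0.06. Socs3 ran from 21.3 to 80.6 in HEM and from 23.2 to 119 in NON hindbrain, a log2 fold-change of -0.08 ± 0.56, and in the midbrain it was 49.6 ± 9.93 in HEM and 52.2 ± 8.77 in NON (SD, n = 5). The HEM and NON ranges overlapped for every gene of these 2 lists in both regions.

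The feeding neuropeptides carried the largest hindbrain differences, with large errors. Of the 7 genes of this list, 5 were above 0 in the hindbrain (median 0.04) and 1 in the midbrain (median -0.12), and none was called. Hindbrain Cart was 532 (1/2), 2366 (3/4), 2601 (5/6), 609 (8) and 801 (9/10) normalised counts in HEM, and 1675 (1/3), 1588 (2/7), 2257 (4/5), 2101 (6) and 2588 (8/9) in NON. HEM pools fell into a low set of 3 and a high set of 2 pools, and all NON pools lay above the low set. The log2 fold-change of the mean was -0.56 ± 0.44 (edgeR adjusted p = 0.94). Hindbrain Pomc was 76.4, 262, 132, 50.9 and 26.4 in HEM pools 1/2, 3/4, 5/6, 8 and 9/10, and 125, 246, 140, 101 and 310 in NON pools 1/3, 2/7, 4/5, 6 and 8/9. Pomc was lowest in the HEM pools labelled PM and highest in HEM 3/4 and the NON pools labelled AM, and the groups overlapped (-0.74 ± 0.57, edgeR adjusted p = 0.94). HEM 1/2, 8 and 9/10 were under every NON pool in both Cart and Pomc, while HEM 3/4 was within the NON range in both, and HEM 5/6 was within it in Pomc and just above it in Cart.

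The midbrain gave another order. Cart was 4388 ± 857 in HEM and 4463 ± 294 in NON midbrain (SD, n = 5), and only HEM 5/6 (2969) was outside the NON range on the low side. Pomc was 54.3 in HEM 1/2 and 48.5 in HEM 5/6, and 317, 244 and 386 in HEM 3/4, 8 and 9/10, against 213 to 329 in NON, a log2 fold-change of -0.42 ± 0.50. Agrp, the gene of the neurons that oppose Pomc neurons, ran from 29.1 to 92.8 in HEM and from 69.6 to 145 in NON (-0.73 ± 0.34, edgeR adjusted p = 0.56). Hdc, the enzyme that makes histamine in tuberomammillary neurons, was 83.9 and 51.7 in HEM 1/2 and 5/6 and between 201 and 288 in the other 8 HEM and NON midbrain pools (-0.52 ± 0.38). The pools lowest in midbrain Pomc, Agrp and Hdc were also lowest in the hypothalamic sum given above, which includes these genes. Its most abundant member in all 10 pools, Hcrt, had another order. Hcrt was 731 in HEM 1/2 and 738 in HEM 9/10, within the NON range of 694 to 878. It was 430 in HEM 5/6 and 512 in HEM 8, under that range, and 1252 in HEM 3/4, above it. Without HEM 1/2 and 5/6, the log2 fold-change of Pomc was 0.17 and no gene was called in the midbrain. In the hindbrain Hdc had 0.16 ± 0.26, Mch 0.51 ± 0.41 and Agrp 0.10 ± 0.79. Leaving out 1 pool moved hindbrain Mch to values from 0.07 to 0.79 and hindbrain Hdc to values from 0.003 to 0.37. HEM 3/4 had 385 normalised counts of hindbrain Mch, and the other HEM pools had at most 194. Npy was 3175 ± 241 in HEM and 3098 ± 194 in NON hindbrain, and 13748 ± 3467 and 15996 ± 2066 in the midbrain (SD, n = 5). The histamine receptor gene Hrh1 had -0.07 ± 0.17 and -0.05 ± 0.09 in hindbrain and midbrain.

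c-Fos transcription responds to calcium and cyclic AMP through a cyclic AMP response element in its promoter, which is printed here because c-Fos had the lowest unadjusted p in the hindbrain between HEM pools with and without a collection time. The sequence upstream of its start site in RefSeq (gene Fos, GRCm38.p6, chr12:85473640-85473889, plus strand) is shown 5′ to 3′ with the core TGACG, or its reverse complement CGTCA, in capitals.
Fos: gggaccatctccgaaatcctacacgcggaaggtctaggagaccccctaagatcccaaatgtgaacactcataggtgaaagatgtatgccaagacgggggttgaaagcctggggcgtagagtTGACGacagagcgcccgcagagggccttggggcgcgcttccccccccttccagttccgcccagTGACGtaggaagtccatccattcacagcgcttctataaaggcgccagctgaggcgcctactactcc
The core was found 2 times on the plus strand, and 17.8% of 32851 mouse promoter windows of the same length held it at least once and 3.90% at least 2 times on either strand. A match is a description of the letters and not a binding site.

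Hindbrain c-Fos was 6406 (1/2), 5488 (3/4), 5652 (5/6), 1871 (8) and 3209 (9/10) normalised counts in HEM, and 5731 (1/3), 3981 (2/7), 3021 (4/5), 6223 (6) and 5226 (8/9) in NON. The HEM pools without a time were in or above the upper part of the NON range and the HEM pools labelled PM were under or near its lower end. All 5 together gave a log2 fold-change of -0.10 ± 0.31 (edgeR adjusted p = 0.94). Midbrain c-Fos followed the same split, with 4543, 3569 and 4438 in HEM 1/2, 3/4 and 5/6, 2304 and 2876 in HEM 8 and 9/10, and 2941 to 5798 in NON. The log2 fold-change of all 5 pools was -0.32 ± 0.21 (edgeR adjusted p = 0.72). Hdac5, a histone deacetylase and the other gene of this list, had 0.13 ± 0.09 and 0.04 ± 0.06.

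**Figure D3:**
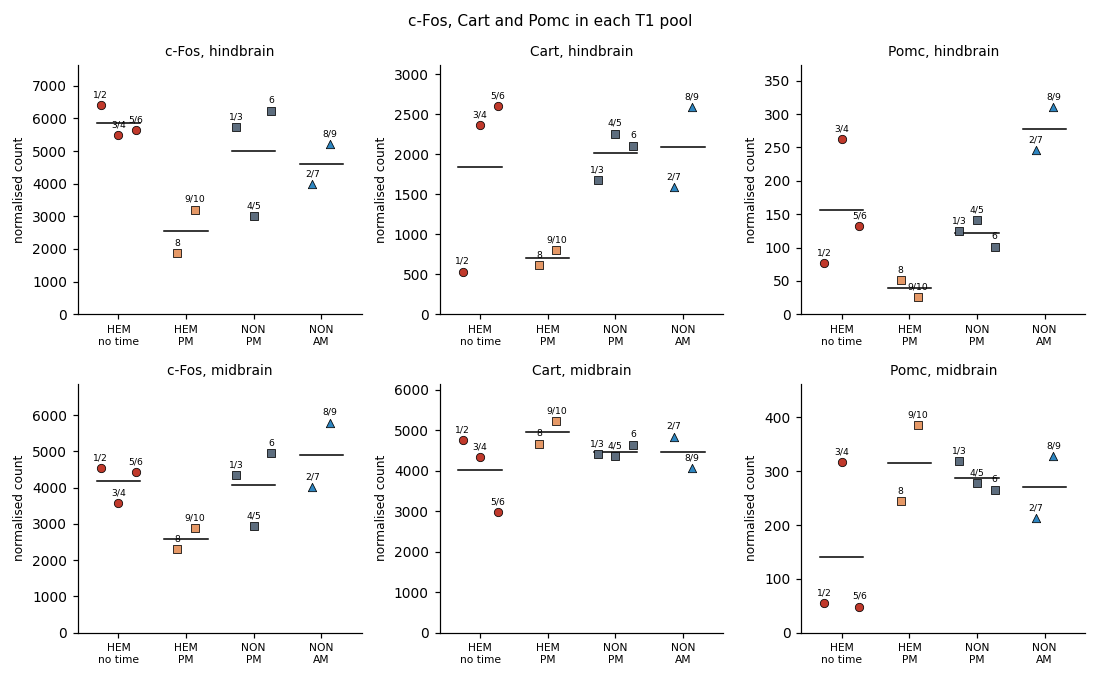
Normalised counts (vertical axes, starting at 0) of c-Fos, Cart and Pomc in the hindbrain (top) and midbrain (bottom), with 1 point for each T1 HEM and NON pool, its pool name above it, and a line at the mean of each genotype and collection label. Both HEM pools labelled PM are under all 3 HEM pools without a time for c-Fos in both regions, and hindbrain Cart is low in HEM 1/2, 8 and 9/10.

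The HEM pools without a collection time were then set against the same 5 NON pools. In the hindbrain no gene was called (0%), with 1 gene under an unadjusted p of 0.05 by edgeR and 4 by DESeq2, which also called none. c-Fos had a log2 fold-change of 0.27 ± 0.23, Cart -0.15 ± 0.40 and Pomc -0.23 ± 0.50. The gene with the lowest unadjusted p by edgeR was Ptp1b (0.19 ± 0.08, edgeR adjusted p = 0.749).

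In the midbrain, 3 genes were called in the pools without a time (6.98% of 43 genes), 1 higher (2.33%) and 2 lower (4.65%) than NON. Ramp3, which turns the calcitonin receptor into an amylin receptor, was 3677 (1/2), 4262 (3/4) and 4551 (5/6) normalised counts in these pools, and between 2789 and 3312 in NON. It rose, with a log2 fold-change of 0.47 ± 0.09 (adjusted p = 0.00894, edgeR). Pdk1 was 4610, 4011 and 4569 in HEM 1/2, 3/4 and 5/6 and between 5146 and 5704 in NON, and it fell by 0.31 ± 0.06 on the log2 scale (edgeR, adjusted p = 0.00894). Arrb2 was 5446, 4821 and 4820 against 5628 to 6046 in NON, and fell by 0.22 ± 0.05 (edgeR, adjusted p = 0.0197). Each of the 3 genes separated the pools without a time from all NON pools. The reference genes of these pools had geometric means of 5164 (1/2), 3511 (3/4) and 3154 (5/6) counts, under every NON pool, and the part of this in the result was not tested.

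Altogether 5 of 43 midbrain genes (11.6%) did not overlap between these 3 pools and NON, and none did in the hindbrain (0%). Beside the 3 called genes they were Npy, with 13006, 9219 and 12581 against 13430 to 18674 in NON (-0.46 ± 0.14, edgeR adjusted p = 0.0835), and Ins2 (0.97 ± 0.31, edgeR adjusted p = 0.0946), and DESeq2 called all 5. Without HEM 1/2 and 5/6, chosen after seeing the data, HEM 3/4 was the only pool of its kind, with its variation taken from the other groups. That fit called 8 genes, which were Ramp3 (0.50), Pdk1 (-0.44), Arrb2 (-0.28), Npy, Foxo1, Ramp1 and the hypothalamic transcripts Mch and Hcrt. HEM 3/4 was itself the pool highest in hypothalamic transcripts, with 32931 normalised counts of Mch against at most 24222 in NON, so this fit does not remove that difference between pools. Ramp3 and Pdk1 were also called whichever of the 8 pools was left out, while Arrb2 was not called without HEM 5/6 (adjusted p = 0.0994, edgeR) or NON 1/3 (adjusted p = 0.0546, edgeR). The count of called genes was 10 without HEM 3/4, 5 without HEM 1/2 and 2 without HEM 5/6 or NON 1/3. Scaling to the positive control probes turned Ramp3 to -0.11 and called 34 genes, all of them lower, and moved the median of all 43 genes from -0.06 to -0.61. With the trimmed mean of M values (TMM), Ramp3 and Pdk1 were called and Arrb2 was not (adjusted p = 0.102 by edgeR).

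The HEM pools labelled PM were set against the same NON pools, which this comparison shares with the preceding one. No gene was called in either region (0%) by edgeR. Midbrain Ramp3 was 2587 (8) and 3196 (9/10), Pdk1 was 5928 and 5509, and Arrb2 was 6463 and 6174. In the midbrain 7 genes had an unadjusted p under 0.05 by edgeR, and DESeq2 called 2 genes, c-Fos (-0.77 ± 0.23 by edgeR, adjusted p = 0.155) and Adrbk1 (0.15 ± 0.04, adjusted p = 0.155). In the hindbrain 5 genes had an unadjusted p under 0.05 by edgeR. DESeq2 called 4 of these, which were Pomc (-2.27 ± 0.66 by edgeR, adjusted p = 0.107), Cart (-1.53 ± 0.50, adjusted p = 0.126), c-Fos (-0.93 ± 0.28, adjusted p = 0.107) and Ramp1 (0.31 ± 0.08, adjusted p = 0.107). Scaled to the positive control probes, Ramp1 had -0.26 where it had 0.31 before, and the median of all genes went from -0.11 to -0.65. That scaling called 3 hindbrain genes, Cart, Pomc and c-Fos, all lower. On the scale of the reference genes, edgeR called c-Fos when NON 4/5 was left out. This held in the hindbrain (-1.06 ± 0.22, adjusted p = 0.0344, edgeR) and in the midbrain (-0.88 ± 0.17, adjusted p = 0.0207, edgeR).

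Only 2 pools of HEM mice had a PM label, so the contrast between HEM pools with and without a time rests on 3 against 2 pools. In the midbrain it again called Ramp3, Pdk1 and Arrb2 (6.98% of 43 genes, 2.33% higher and 4.65% lower). Ramp3 was higher in the pools without a time (0.53 ± 0.11, adjusted p = 0.0153 by edgeR), and Pdk1 (-0.38 ± 0.07) and Arrb2 (-0.33 ± 0.06) were lower (adjusted p = 0.00772 each, edgeR). DESeq2 called 11 genes. This is not independent of the comparison with NON, since both use the same 3 pools. Without HEM 8, where HEM 9/10 was the only PM pool and its variation was taken from the other groups, Ramp3 had 0.38, Pdk1 -0.33 and Arrb2 -0.30, and none was called. With TMM they had 0.65, -0.26 and -0.21, and none was called. Scaled to the positive control probes, 28 genes were called, all lower, the median of all genes went from -0.08 to -0.63, and Ramp3 turned to -0.03 (adjusted p = 0.889, edgeR). Of 43 genes, 17 (39.5%) did not overlap between these pools in the midbrain and 15 (34.9%) in the hindbrain, which with 3 against 2 pools is a description only. In the hindbrain no gene was called (0%), with 8 genes under an unadjusted p of 0.05 by edgeR, and DESeq2 called c-Fos, Pomc and Ramp1. The log2 fold-change of c-Fos, pools without a time over those labelled PM, was 1.20 ± 0.30 in the hindbrain (edgeR adjusted p = 0.105) and 0.69 ± 0.24 in the midbrain (edgeR adjusted p = 0.0849). Leaving out HEM 5/6 called 7 hindbrain genes, c-Fos (1.23 ± 0.35, adjusted p = 0.0459, edgeR) among them, and leaving out HEM 1/2 called Cart alone (1.81 ± 0.24, adjusted p = 0.00159, edgeR).

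**Figure D4:**
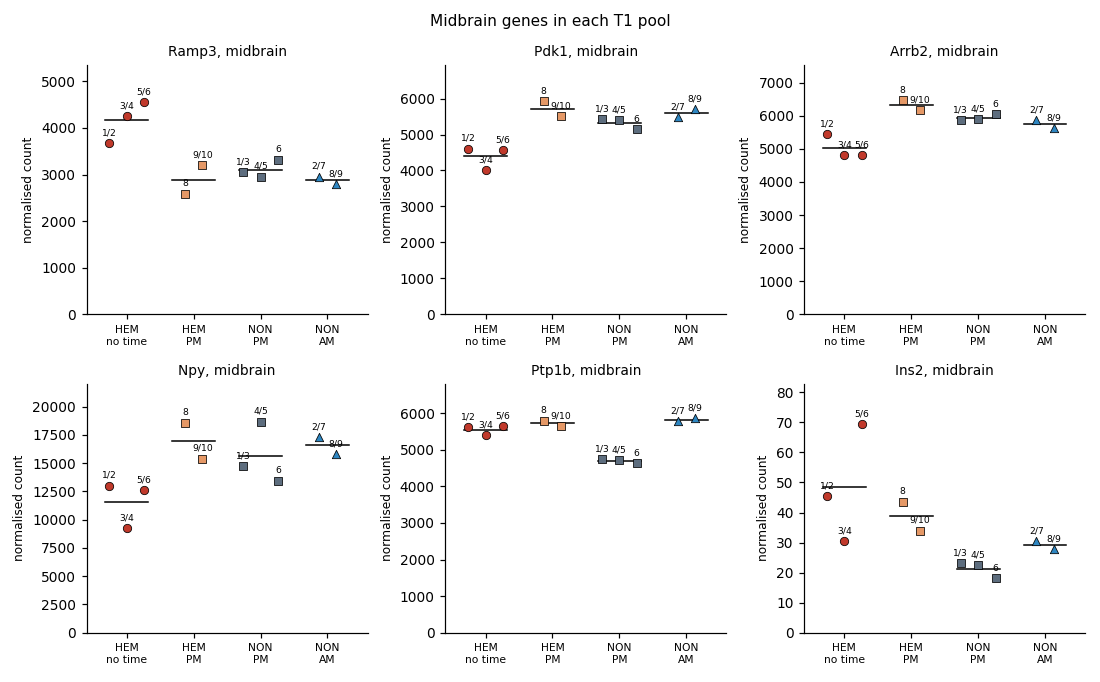
Normalised counts (vertical axes, starting at 0) of 6 genes in the T1 midbrain, with 1 point for each HEM and NON pool, its pool name above it, and a line at the mean of each genotype and collection label. Ramp3 is higher, and Pdk1, Arrb2 and Npy lower, in the 3 HEM pools without a time than in every NON pool, and Ptp1b is between 4633 and 4746 in the NON pools labelled PM and at least 5396 in the other NON pools and in the HEM pools.

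The NON pools carried both collection labels. In the midbrain, 22 of 43 genes (51.2%) did not overlap between the 2 NON pools labelled AM and the 3 labelled PM, and in the hindbrain 10 did not (23.3%). These shares rest on 2 against 3 pools and are a description. Ptp1b, singled out here after its values were seen, was 5792 (2/7) and 5860 (8/9) in the AM pools and 4746 (1/3), 4725 (4/5) and 4633 (6) in the PM pools of the midbrain. All 5 HEM pools had between 5396 and 5800, next to the NON pools labelled AM, whether they carried a PM label or none. Against the NON pools labelled PM alone, Ptp1b was higher in the HEM pools without a time (0.24 ± 0.03, adjusted p = 0.0173, edgeR, 3 against 3 pools) and in the HEM pools labelled PM (0.28 ± 0.03, adjusted p = 0.00902, edgeR, 2 against 3 pools). Restricted to PM, 7 midbrain genes were called (16.3%), all higher in HEM, in a fit where 30 of 43 genes were above 0 and the median log2 fold-change was 0.10. The other 6 were Jak2 (0.25 ± 0.03), Adrbk1, Stat3, Pik3ca, Hdac5 and Ramp2. All of the 7 but Ramp2 were also higher in both NON pools labelled AM than in any NON pool labelled PM. Both comparisons use the same 3 NON pools labelled PM, and low values in these favour both, so this is a description only. Restricted to PM, 3 hindbrain genes were called (6.98%), all lower, which were Cart (-1.51 ± 0.18, adjusted p = 0.00463, edgeR), Pomc (-1.69 ± 0.35) and Pik3ca (-0.09 ± 0.02). The collection time of the 3 unlabelled HEM pools was not analysed here beyond their labels, and whether collection time had a part in the Ramp3, Pdk1 and Arrb2 differences was not tested. Fitted against the NON pools labelled PM alone, the log2 fold-changes were 0.42 for Ramp3, -0.28 for Pdk1 and -0.24 for Arrb2, and none was called (adjusted p = 0.0668 for each, edgeR, 3 against 3 pools). Against those labelled AM alone they were 0.53, -0.35 and -0.19, and none was called (adjusted p = 0.132 for Ramp3 and Pdk1 and 0.375 for Arrb2, edgeR, 3 against 2 pools). In a fit of all pools with NON split by time, chosen after seeing the data, the 3 genes were called against the PM pools, and Ramp3 and Pdk1 but not Arrb2 (adjusted p = 0.109, edgeR) against the AM pools.

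HEM pools were last compared with the 4 HOM pools of T1 in each region, in a fit of all 14 pools. No gene was called in the hindbrain (0%, lowest adjusted p = 0.61, 2 genes under an unadjusted 0.05) or in the midbrain (0%, lowest adjusted p = 0.373, 5 genes under an unadjusted 0.05) by edgeR, and DESeq2 called none in either. Midbrain Ins2 had a log2 fold-change of 0.89 ± 0.30 over HOM, which had between 15.1 and 35.4 normalised counts, Socs3 -1.07 ± 0.46 and Npy -0.60 ± 0.26 (adjusted p = 0.373 for each, edgeR). Of the HOM pools, 1/5 alone had high midbrain Socs3 (263) and Npy (37178), while the other 3 had 44.5 to 62.5 and 14242 to 16740. Hindbrain c-Fos was 1555 and 1624 in the HOM pools labelled PM and 3614 and 4466 in those labelled AM, and the log2 fold-change of HEM over HOM was 0.69 ± 0.39 (adjusted p = 0.745, edgeR).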

How the data were processed

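RNA was measured in 192 pools of the series, of which the 20 T1 hindbrain and midbrain pools labelled HEM or NON, and 8 HOM pools beside them, were used. The authors extracted RNA with an RNeasy lipid tissue kit, pooled equal amounts, and deposited raw nCounter counts for each probe, with no background correction or normalisation. Groups and collection times came from the labels. Pools of the same name in both regions were taken to hold the same mice, which the labels do not state.

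Counts of the 43 target genes were tested with edgeR 4.0.16 in R 4.3.3 (glmQLFit and glmQLFTest), taking each pool's geometric mean over 3 reference genes as its library size. The regions were fitted apart. HEM pools without a time, HEM pools labelled PM and NON pools each had a mean in the contrasts by collection label, and HOM was compared in a fit of 14 pools. Exact permutation tests used log2 normalised counts plus 0.5. No gene was called in HEM against NON, so a further limit of 1 or 0.58 on the log2 fold-change of called genes had nothing to act on. DESeq2 1.42.0, other scalings, filters and sets of pools were alternatives. NanoStringDiff, the tool of the study, was not used here. The code was tested on simulated data.

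Named genes were those the study's expression results name, those called, those that did not overlap, the 5 largest changes in a region among genes above background in all 10 pools, and the 2 with the lowest unadjusted p in each list by role. Pik3ca was named after its values were seen. The members, lists and markers were chosen with earlier results of these data known. Transcripts of all 43 probes matched RefSeq, and Calcr and Calcr-1a share 1 transcript. Of 40 pairs of pools within groups, none had identical counts, and chi-square over degrees of freedom was at least 9.53. Deviations from group means over 43 genes correlated between the regions, for pools of the same name, at -0.71 (NON 1/3) to 0.34 (HEM 3/4). P-values measure the spread between pools, most of which already average 2 mice.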

Additional observations from a re-analysis of the deposited data

Results flagged for a closer look

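For 16 genes, 64 groups of 5 pools were tested for a highest or lowest pool far from the others, and 6 were flagged. A chance rate of about 1 in 20 holds for independent groups of normally distributed values. These genes were measured in the same pools, so that rate is no benchmark here. Hindbrain NON 2/7 was the highest of its group in 4 genes. It had 119 normalised counts of Socs3 where the next pool had 49.7, 292 of Ins1 where the next had 72.9, 163 of Amylin where the next had 36.0, and 205 of Agrp where the next had 56.6. Hindbrain HEM 5/6 was the lowest of its group in Npy, at 2754 where the next pool had 3197. Midbrain NON 4/5 was the highest of its group in Amylin, at 92.0 where the next pool had 35.1.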

How the results depend on the processing

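No gene was called for HEM against HOM in either region, or for HEM against NON in the midbrain, when any single pool was left out. Leaving out a pool gave 0 to 1 called genes for HEM against NON, for pools without a time against NON and for PM pools against NON in the hindbrain, and 0 to 1 for PM pools against NON in the midbrain. It gave 0 to 7 for pools without a time against PM pools in the hindbrain, 2 to 10 for pools without a time against NON in the midbrain, and 0 to 6 for pools without a time against PM pools in the midbrain, where no gene was called without HEM 8, which leaves 1 PM pool whose variation is taken from the other groups. DESeq2 called 4 genes for PM pools against NON and 3 for pools without a time against PM pools in the hindbrain. In the midbrain it called 5 for pools without a time against NON, 2 for PM pools against NON and 11 for pools without a time against PM pools. Scaling to the positive control probes called 3 genes for PM pools against NON in the hindbrain, and in the midbrain 34 for pools without a time against NON and 28 against PM pools. TMM called 0 genes for pools without a time against PM pools in the midbrain. With only pools labelled PM, HEM against NON gave 3 called genes in the hindbrain and 7 in the midbrain, and pools without a time against NON labelled PM gave 1 in the midbrain. Leaving out HEM 1/2 and 5/6, the pools lowest in hypothalamic markers, an alternative chosen after seeing the data like the one without the pools high in islet genes and the split of NON by time, gave 8 and 11 called genes for pools without a time against NON and against PM pools in the midbrain. With the pool of mice as a replicate block across the regions, the test of a regional difference called 0 genes (lowest adjusted p = 0.978 by edgeR), and the block changed no other call because no other comparison spans both regions. The cause of these differences between settings was not tested. Hindbrain Ins1 and Amylin had errors above 1 on the log2 scale, so that only very large differences could have passed the test for them. Hindbrain Agrp, Pomc and Socs3, and midbrain Amylin and Pomc, had smaller errors that still left only large differences able to pass. A gene that was not called was therefore not shown to be unchanged.

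These named genes changed sign for HEM against NON, or for the contrast named, and the cause was not tested. With HEM pools without a time against NON pools labelled PM, the log2 fold-change became hindbrain c-Fos 0.23, Socs3 0.84, Pomc 0.37, Ins1 1.91, Ramp3 -0.037, Jak2 0.034, Ramp1 -0.018, Stat3 0.0077, and midbrain c-Fos 0.035, Socs3 0.15, Lepr-b 0.0065. With HEM pools without a time against NON pools labelled AM, the log2 fold-change became hindbrain c-Fos 0.35, Npy -0.037, Amylin -0.26, Calcr -0.30, Calcr-1b -0.36, Agrp -0.13, Pias3 0.043, and midbrain Hdac5 -0.086, Irs2 -0.043, Ptp1b -0.069. Without the single-mouse pools, the log2 fold-change became hindbrain c-Fos 0.21, Socs3 0.092, Npy -0.0016, Ins1 0.19, Calcr-1b -0.020, Ramp3 -0.051. With the positive control probes as the scale, the log2 fold-change became hindbrain Npy -0.25, Amylin -0.013, Calcr -0.25, Calcr-1b -0.26, Agrp -0.089, Hdc -0.094, Ramp3 -0.29, Adrbk1 -0.19, Akt1 -0.21, Hdac5 -0.17, Irs2 -0.14, Ptp1b -0.18, Ramp1 -0.18, Ramp2 -0.21, and midbrain Ramp3 -0.096, Adrbk1 -0.22, Hdac5 -0.28, Irs2 -0.22, Pik3r1 -0.21, Ptp1b -0.20, and hindbrain PM against NON Ramp1 -0.26, and hindbrain without a time against PM Ramp1 0.13, and midbrain without a time against NON Ramp3 -0.11, and midbrain without a time against PM Ramp3 -0.033. With TMM factors, the log2 fold-change became hindbrain Ins1 0.022, Ramp3 -0.0083. On the scale of the permutation test, the log2 fold-change became hindbrain Ins1 0.63, Ramp3 -0.011. With only pools labelled PM, the log2 fold-change became hindbrain Amylin -0.15, Agrp -0.54, Ramp3 -0.023, Ptp1b -0.0081, and midbrain Socs3 0.020, Pomc 0.14, Cart 0.15, Npy 0.12, Pdk1 0.10, Arrb2 0.089, Ramp3 -0.10, Hrh1 0.056, Lepr 0.053, Pias3 0.015. Without the pools high in islet genes, the log2 fold-change became hindbrain Amylin -0.10, Agrp -0.56, Ramp3 -0.025. Without the third reference gene of the file, the log2 fold-change became hindbrain Ramp3 -0.022. Without HEM 1/2 and 5/6, the log2 fold-change became midbrain Pomc 0.17, Cart 0.088, Calcr 0.018, Mch 0.13, Lepr 0.038. With the pool in brackets left out, the log2 fold-change became c-Fos 0.10 (HEM 8) and 0.0058 (HEM 9/10) and 0.012 (NON 6) in the hindbrain, Socs3 0.030 (HEM 3/4) and 0.097 (HEM 8) and 0.069 (HEM 9/10) and 0.51 (NON 2/7) in the hindbrain, Ins1 0.25 (HEM 3/4) and 0.22 (HEM 8) and 0.23 (HEM 9/10) and 1.58 (NON 2/7) in the hindbrain, Amylin -0.0096 (HEM 1/2) and -0.65 (HEM 5/6) and -0.12 (NON 1/3) and -0.11 (NON 4/5) and -0.099 (NON 8/9) in the hindbrain, Calcr -0.0051 (HEM 5/6) and -0.029 (NON 1/3) and -0.012 (NON 4/5) in the hindbrain, Calcr-1b -0.0061 (HEM 8) in the hindbrain, Agrp -0.22 (HEM 1/2) and -0.42 (HEM 5/6) and -0.091 (NON 1/3) and -0.093 (NON 4/5) and -0.091 (NON 8/9) in the hindbrain, Ramp3 -0.12 (HEM 1/2) and -0.053 (HEM 8) and -0.062 (NON 8/9) in the hindbrain, Hrh1 0.010 (HEM 3/4) in the hindbrain, Socs3 0.034 (HEM 8) and 0.014 (NON 8/9) in the midbrain, Cart 0.088 (HEM 5/6) and 0.0070 (NON 2/7) in the midbrain, Mch 0.022 (HEM 5/6) in the midbrain. Without NON 6, hindbrain Socs3 was -0.088, Ins1 -0.056 and Calcr-1b 0.087.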

Other observations

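Deviations from the group means were compared between hindbrain and midbrain pools of the same name. Over 43 genes the correlation between the regions was -0.71 in NON 1/3, -0.62 in NON 2/7, -0.54 in NON 4/5, -0.68 in NON 6 and -0.03 in NON 8/9. The HEM pools gave values of both signs, at 0.29 in HEM 1/2, 0.34 in HEM 3/4, -0.29 in HEM 5/6, 0.26 in HEM 8 and -0.39 in HEM 9/10. These are descriptions over genes of 1 pool, and the genes share the scale of that pool's reference genes.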
